A study of Caenorhabditis elegans with 2 samples.

Results

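Of the 5501 thresholded peaks of MES-2-GFP chromatin immunoprecipitation in L4 worms, 255 (4.64%) had their summit in an exon or untranslated region (UTR) away from any promoter. A peak was counted here when its summit lay over 500 bp from every annotated protein-coding transcript start and inside a 5' UTR, coding exon or 3' UTR of a protein-coding gene. The summits of 161 peaks lay in coding exons, of 77 in 3' UTRs and of 17 in 5' UTRs, in 241 host genes. All 255 are described. They come from the thresholded list alone, whose lowest signal is 73.5, so regions of the same kind below that value are outside them. Within that list position alone chose them.

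The material was whole Caenorhabditis elegans of strain OP248, hermaphrodites at the L4 larval stage and of unrecorded age. The transgenic line stably expressed MES-2 with a GFP-FLAG tag at its C terminus, and the precipitation used an antibody against GFP on sonicated chromatin. Both samples belong to this 1 group and are biological replicates 1 and 2, while peaks were called against a control that was not analysed here. The labels give neither the promoter nor the copy number or site of the tagged gene, and whole worms mix germ line and somatic nuclei. With 1 group and no control sample, no comparison of conditions was possible, and the intervals below (95%) cover counting error only.

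MES-2 is the C. elegans Enhancer of zeste protein. It is the subunit of Polycomb repressive complex 2 that methylates lysine 27 of histone H3. It acts with MES-3 and MES-6, and the complex is known for keeping the X chromosome silent in the germ line and for limiting cell fate changes in embryos. In worms, peaks of many chromatin proteins fall at promoters and enhancers. Worm genes are packed closely enough that the end of 1 gene is often near the start of the next.

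The DNA under 8 of the 14 strongest summits, those on chromosomes II, III, V and X, is shown here because it shows what kind of sequence these high exonic and UTR peaks cover. Each line gives 30 bases on the strand of the host gene, 5' to 3', with the summit base in capitals, read from the WBcel235 genome (ce11). The C34C12.2 window is chrIII:3456408-3456437, pks-1 chrX:5429529-5429558, cept-2 chrV:14351144-14351173, F22D3.4 chrII:6926673-6926702, ril-2 chrV:12597028-12597057, dos-3 chrIII:835990-836019, F58G1.7 chrII:12944688-12944717 and hrg-7 chrV:12743962-12743991. The genes F22D3.4, ril-2, dos-3 and F58G1.7 lie on the minus strand and the others on the plus strand. None of these 8 windows of 30 bases held either of the motifs examined further on. Within 100 bp of the summit, the distance used there, pks-1, cept-2, F22D3.4 and dos-3 held 1 of them, GAGAG.
C34C12.2 (5' UTR): tgcagactttttgcGcgatgcaagcgcgct
pks-1 (coding exon): aaccttatccaagaGactcatctcgtgtcc
cept-2 (3' UTR): tgatttctagtcgcAcgaccggcggttcct
F22D3.4 (5' UTR): ggagcagcagtagtAatagtggcagagaaa
ril-2 (coding exon): gcgatcgattcgatGgccgagtggttgtgt
dos-3 (coding exon): tccagatgacccacAtaatcgcgatcatgc
F58G1.7 (coding exon): gctactatctaccaTtttgttctgcaacgg
hrg-7 (coding exon): gacctgggccatgcAtgtttgcattttatg

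A second set is shown for the motifs, which are GAGAG, a GA repeat found at many open promoters, and GTTCNANNC, the B box of genes read by RNA polymerase III. On the chromosomes of the first set, these 4 are the strongest members with a match inside the 30 bases, and capitals mark the match on either strand. The windows are chrV:4810856-4810885 for ccep-97, chrII:8820336-8820365 for F46C5.1 (both minus strand), chrIII:3869296-3869325 for rpl-3 and chrV:9631873-9631902 for T06E4.5 (both plus strand). The T06E4.5 match is the only one of the 4 to the B box letters.
ccep-97 (3' UTR): ctGAGAGcaaatcttgcaccaaacgcgctc
F46C5.1 (3' UTR): tttcccCTCTCcactggacatatcaattcg
rpl-3 (coding exon): gcaagtcgctcatcacccaaaccaaGAGAG
T06E4.5 (coding exon): tgtgacaataacttctttgagGTTCTAGAC

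Exonic and UTR peaks were rare for the amount of sequence that could have held them. Coding exons and UTRs over 500 bp from a start cover 20.8 Mb, which is 20.7% of the 6 nuclear chromosomes, yet held 4.64% of the peaks. The density was 12.3 summits per Mb (10.8 to 13.9), against 54.9 per Mb for all peaks over the whole genome. The classes differed widely per Mb of their own sequence. Distal 5' UTR sequence held 57.7 summits per Mb (33.6 to 92.4), 3' UTR sequence 29.1 (22.9 to 36.3) and coding exons 9.03 (7.69 to 10.5). Coding exons thus gave most members through their length, with the lowest density of the 3, and their interval lies below both others.

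Across chromosomes, III stood highest with 58 members and 18.6 per Mb of eligible sequence (14.2 to 24.1). X had 28 members and 8.43 per Mb (5.60 to 12.2), and IV, also with 28, had 8.69 per Mb (5.78 to 12.6). The intervals of X and IV lie below that of III, while I (13.5 per Mb), II (12.5) and V (12.1) fell between with intervals that overlap it. As shares of each chromosome's own peaks the order was different, with V highest at 6.86% (5.18 to 8.87) and X lowest at 3.01% (2.01 to 4.32). Within the 3' UTR class, X held 5 summits at 9.03 per Mb (2.93 to 21.1), against 46.5 per Mb (28.0 to 72.6) on I, the highest. The X interval also lies below that of III (24.2 to 66.4). It overlaps those of II (11.5 to 44.1), IV (13.8 to 49.5) and V (18.2 to 53.6).

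The members were weak peaks. Their median signal, the authors' height for each peak in the pooled list, was 90.6 (88.0 to 93.8), against 178 (169 to 185) for the 2871 promoter peaks. Intronic peaks away from starts had a median of 111 (107 to 116), intergenic ones 122 (118 to 128), and all peaks together 140 (136 to 144). Within the members, 5' UTR summits had 116 (84.0 to 153), 3' UTR summits 97.5 (92.2 to 108) and coding exon summits 87.9 (84.9 to 90.1). The coding exon interval lies below that of 3' UTR summits, and the 5' UTR interval, from 17 peaks, overlaps both. A signal under 100 was found in 160 members, and over 200 in 14, of which 3 exceeded 500. All thresholded peaks lie above every other pooled region in signal, so the threshold is itself a limit on signal.

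The share of exonic and UTR summits fell with peak height. In the weakest 10% of the thresholded list, with signals of 73.5 to 80.6, they made up 63 of 550 peaks, or 11.5% (8.92 to 14.4). In the strongest 10%, with signals of 445 and above, they were 3 of 551, or 0.544% (0.112 to 1.58). Below the threshold the gradient went on. Of the 24499 pooled regions that did not pass, 31.7% (31.1 to 32.3) had such a summit, which ran from 23.0% in their strongest 25% to 36.2% in their weakest 25%. Even that last share was above the 20.7% of the genome that such sequence covers, whereas no 10% band of the thresholded list reached it.

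**Figure D1:**
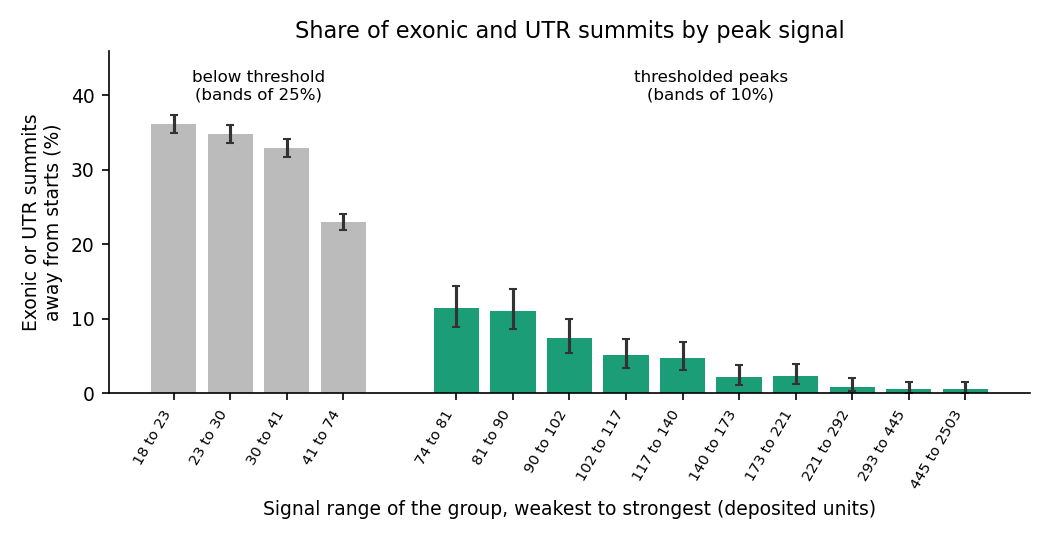
Share of summits in exons and UTRs away from starts, by signal. Grey bars are bands of 25% of the pooled regions below the threshold, green bars bands of 10% of the 5501 thresholded peaks, both from weakest to strongest, and lines are exact 95% binomial intervals. The share goes from 36.2% in the weakest band below the threshold to 0.544% in the strongest band above it.

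A small set of strong exceptions led the list. C34C12.2, a gene known by its sequence name, held the highest summit, in its 5' UTR 2077 bp from the nearest start, with a pooled signal of 995 (rank 122). Its region had 560 in replicate 1 and 407 in replicate 2, at ranks 130 and 143 of 30000. The second was pks-1, which encodes a polyketide synthase, with a pooled signal of 865 (rank 159). Its replicate signals were 411 and 420, and the summit lay in exon 22 of 31, 15193 bp from the nearest start of any protein-coding gene and 21723 bp from the next summit. F16A11.1 followed with 652 in its 3' UTR, 61 bp before the gene's end and 727 bp upstream of rtcb-1, the RNA ligase gene, and its replicates had 416 and 238. In all 3 genes both replicates placed the region among their strongest 449, and none of the 3 had a peak within 500 bp of its own starts.

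The next members were much lower. The homeobox gene ceh-8 had 359 in its 3' UTR, with 228 in replicate 1 and 166 in replicate 2. In cept-2, which encodes a choline and ethanolamine phosphotransferase, the 3' UTR summit had 335, with 193 and 150 in the replicates. It lay 551 bp upstream of vha-13, a subunit gene of the vacuolar proton pump. F22D3.4 carried the second strongest 5' UTR summit at 328, with replicate values of 192 and 126, and lay 915 bp inside its own gene. These 3 ranked from 808 to 929 in the pooled list and between 587 and 1396 in either replicate.

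Pooled ranks 1226 to 1291 held the next 4 members. The coding exon summit of suro-1 had 272, with 124 and 99.9 in replicates 1 and 2. That of ril-2 had 268, with 148 and 123. The Notch co-ligand gene dos-3 had 262 in its last exon, with 200 and 106. The mitochondrial carrier gene slc-25A46 also had 262, in its 3' UTR, with 118 and 114. Replicate 1 was the higher in each of the 4, by the least in slc-25A46 and by the most in dos-3.

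Among the last of the 15 strongest, the patched-related gene ptr-12 had 218 (95.6 in replicate 1 and 105 in replicate 2) and rsbp-1, a partner of RGS proteins, 214 in its 5' UTR (74.7 and 121). The heme-signalling gene hrg-7 had 212, with 143 in replicate 1 and 58.6 in replicate 2. The spindle checkpoint gene mdf-2, the Mad2 of the worm, went the other way with a 3' UTR summit of 197, from 49.7 in replicate 1 and 132 in replicate 2. Its summit fell inside an annotated tRNA gene. F58G1.7 had a pooled signal of 223 but replicate signals of 240 and 298. The summits of those replicate regions lay 312 and 313 bp away, at the distance of the next pooled summit (313 bp), so they do not measure the F58G1.7 summit itself.

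**Figure D2:**
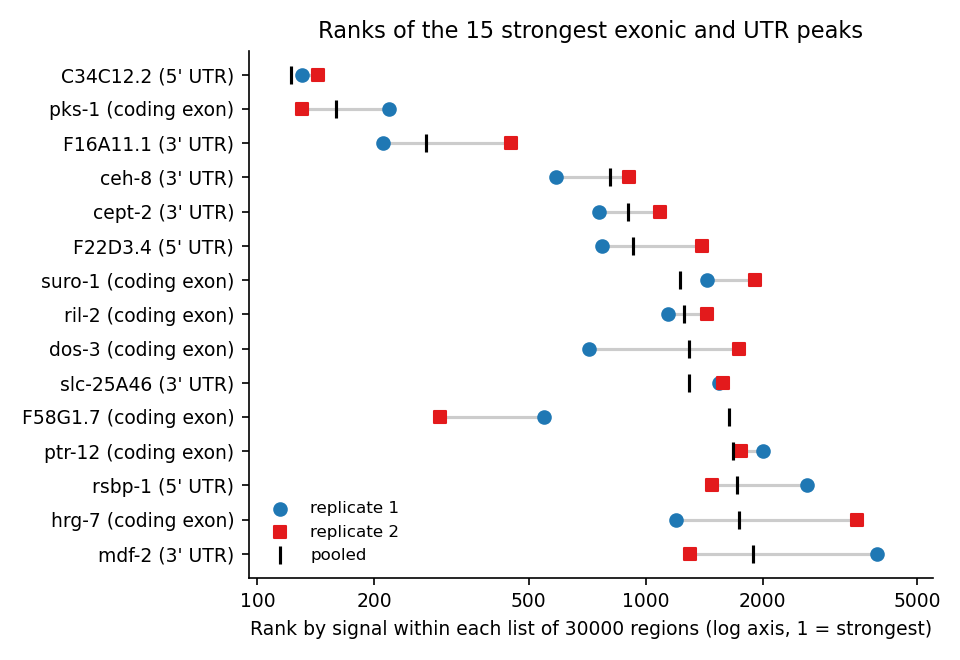
Ranks by signal of the 15 strongest exonic and UTR peaks farther than 20 kb from mes-2, on a log axis where 1 is the strongest of 30000 regions, in replicate 1 (circles), replicate 2 (squares) and the pooled list (bars). C34C12.2 and pks-1 stay within ranks 122 to 218 in all 3, while hrg-7 (1195 and 3491) and mdf-2 (3946 and 1297) are far apart, and the replicate ranks of F58G1.7 belong to a neighbouring summit.

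Agreement between the replicates was lower for the members than for peaks at large. Among the strongest 5501 regions of both replicates, 80 of 255 members were found, or 31.4% (25.7 to 37.5), against a background of 64.8% over all thresholded peaks. Promoter peaks reached 72.5% (70.8 to 74.1), intergenic ones 60.5% and intronic ones 54.1%. By class, the share was 8 of 17 for 5' UTR summits (47.1%), 27 of 77 for 3' UTR summits (35.1%) and 45 of 161 for coding exon summits (28.0%), with intervals that overlap. Taking any region of the 30000 in each list, 224 members (87.8%) overlapped one in both replicates, against 95.2% of all peaks. None lacked a region in both. The thresholded list was itself made from both replicates, so part of this overlap follows from how the list was made.

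The shortfall went with height. In the weakest 25% of all peaks by signal (73.5 to 95.4), where 148 members lie, 8 members (5.41%, 2.36 to 10.4) were in the strongest regions of both replicates, against 12.3% (10.5 to 14.3) of the other peaks there. In the next 25% the shares were 54.9% (42.7 to 66.8) of 71 members and 55.8% (53.0 to 58.5) of the others. In the third band 23 of 26 members (88.5%) were found, against 93.0% of other peaks, and in the strongest band 10 of 10, against 98.9%. Compared at like signal, then, the intervals of members and other peaks overlap in the 3 upper bands and barely separate in the lowest.

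The replicates did not contribute equally. Replicate 1 held 160 members (62.7%, 56.5 to 68.7) among its strongest 5501 regions and replicate 2 held 115 (45.1%, 38.9 to 51.4). For all peaks the shares were 77.9% and 79.5%. Of the 224 members with a region in both, 153 ranked higher in replicate 1 and 71 in replicate 2, where all peaks split into 2558 and 2672. Classed on its own, the strongest 5501 regions of replicate 1 held 346 exonic and UTR summits (6.29%, 5.66 to 6.96) and those of replicate 2 held 225 (4.09%, 3.58 to 4.65). Replicate 1 therefore carried the larger share of this class in both measures. How deeply either was sequenced is not known.

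Over the 224 members the signals of the replicates had a Spearman rho of 0.382, against 0.744 over the 5235 peaks with a region in both. The sets differ in range, with quartiles of pooled signal at 80.7 and 116 for all members, against 95.4 and 250 for all peaks. No rho was computed at like signal. Both rho values are descriptions across peaks of the same 2 libraries, without a p. The pooled summit lay a median of 17.5 bp from the region's summit in replicate 1 and 19.5 bp in replicate 2, against 9 and 10 bp for all peaks. The extremes show how far single members could part. ncl-1, a regulator of nucleolus size, ranked 2044 in replicate 1 and 19414 in replicate 2 (signals 93.8 and 14.6), and a coding exon of nurf-1 ranked 2877 and 20526 (67.7 and 13.9). T07E3.4 ranked 29800 in replicate 1 and 5651 in replicate 2 (8.33 and 38.0), and the summit of its region lay 166 bp from the pooled one in replicate 1 and 11 bp from it in replicate 2. zig-11, of the immunoglobulin family, ranked 13996 and 2472 (18.1 and 80.1).

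**Figure D3:**
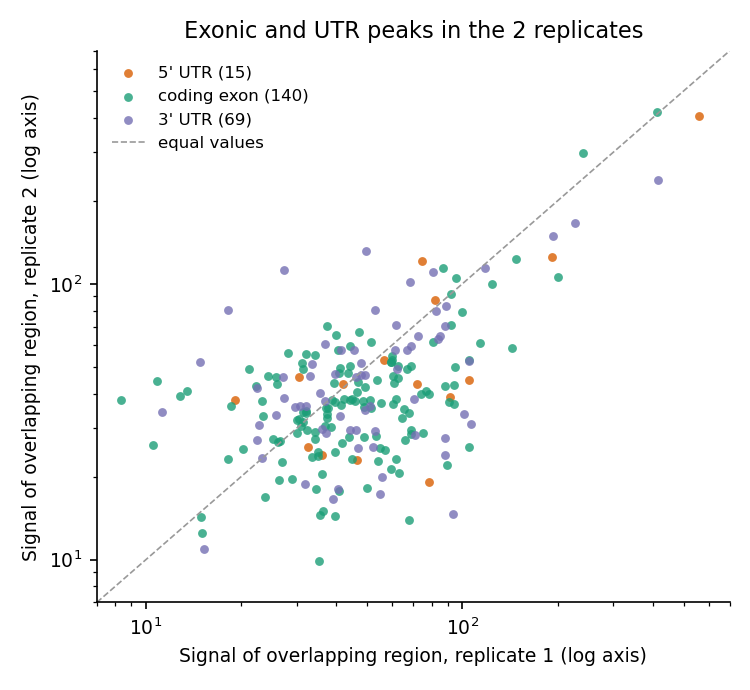
Signal of the region overlapping each exonic or UTR peak in replicate 1 (x axis) and replicate 2 (y axis), both logarithmic, for the 224 members with a region in both. The dashed line marks equal values. The points for C34C12.2 (560 and 407) and pks-1 (411 and 420) are at the upper right, and of all 224 members 153 rank higher in replicate 1.

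Summits gathered at the 3' ends of their host genes. Most of them, 167 of 255 (65.5%, 59.3 to 71.3), lay in the last exon, 76 in an internal exon and 12 in the first. Of eligible exon and UTR positions, sampled every 50 bases, 26.6% lie in a last exon. Part of this follows from the 3' UTR class, but coding exon summits showed it on their own, with 91 of 161 (56.5%, 48.5 to 64.3) in the last exon, against 16.7% of eligible coding positions. The median coding exon summit lay 377 bp from the end of the gene, against 1423 bp for eligible coding positions. Among 3' UTR summits the position was nearer to that of the annotation, with a median of 270 bp to the gene's end, against 158 bp.

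By position along the gene, 165 members (64.7%, 58.5 to 70.6) fell in the last 20% of gene length, where 33.2% of eligible positions lie. The final 10% alone held 39.6% of members, against 19.2% of positions. The first 50% of the gene held 36 members (14.1%, 10.1 to 19.0), against 31.5%. The 5' UTR summits were the exception, with 14 of 17 in the first 50%, as the annotation of that class fixes in large part (72.4% of its eligible positions). The median distance from the nearest start was 1443 bp, against 1490 bp for eligible positions. Beyond 2 kb lay 72 members (28.2%, 22.8 to 34.2), against 35.1% of positions, and from 500 to 750 bp 48 members (18.8%, 14.2 to 24.2), against an interval of 14.9% to 15.1% for positions.

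**Figure D4:**
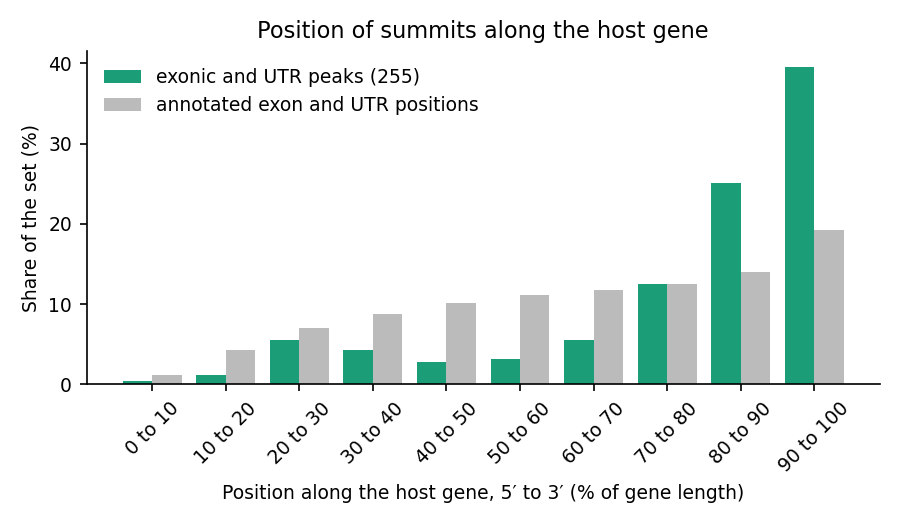
Position of the 255 summits along their host genes (green) and of eligible exon and UTR positions sampled every 50 bases (grey), as shares of each set in bands of 10% of gene length from the 5' end. The last band holds 39.6% of summits and 19.2% of positions.

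The nearest start belonged to the host gene itself for 135 members, of which 130 lay downstream of it. Another gene had the nearest start for 120, with the summit upstream of that start in 50 and downstream in 70. In 22 members the summit lay upstream of another gene's start by at most 1 kb, as in F16A11.1, ceh-8, cept-2 and ril-2, so the 3' end of the host and the upstream region of the next gene were the same DNA there. Only 4 members were over 5 kb from every start, among them pks-1, rnp-6 (a splicing factor gene, 83.0) and kin-18 (a TAO kinase gene, 84.7).

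The 500 bp limit cut through a continuous set. Just outside it stood the collagen gene col-96 (503 bp, signal 88.2), Y25C1A.8 (505 bp, 108), Y82E9BR.3 (510 bp, 80.1) and pkg-2, a cyclic GMP-dependent kinase gene (516 bp, 82.9). Just inside were exonic summits at 500 bp from the start of F37C4.6 (159), 497 bp from dus-2 (128), 494 bp from atp-4 (251) and 490 bp from rpl-41.2 (97.3). The 16 members within 600 bp had a median of 88.5 and the 27 exonic summits from 400 to 500 bp one of 93.1.

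Host genes often had a peak at a promoter as well. Of 241 host genes, 103 (42.7%, 36.4 to 49.2) had a thresholded summit within 500 bp of one of their own starts, against a background of 16.5% of protein-coding genes. By summit, 44.3% of members sat in such a gene, against 20.3% of eligible positions, a measure in which long genes count in proportion to their exons. The share was 64.7% (11 of 17) for 5' UTR summits, 45.5% (35 of 77) for 3' UTR summits and 41.6% (67 of 161) for coding exon summits. It was also high for members over 1 kb from every start, whose hosts were bound in 39.4% (31.9 to 47.3). Beyond 2 kb, 20 of 72 summits (27.8%, 17.9 to 39.6) had a bound host, against 21.0% of positions at that distance, and the interval includes that value.

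Host genes were longer than the average gene, with a median of 3673 bp, against 2027 bp. Hosts were more often bound than other genes in each of 4 length groups. Up to 2 kb, 45.1% (31.1 to 59.7) of hosts were bound and 12.9% (12.2 to 13.6) of other genes. From 4 to 8 kb, where the gap was narrowest, the shares were 36.6% (25.5 to 48.9) and 22.9% (21.4 to 24.5). Where a host was bound, its promoter usually held the higher peak, in 92 of 113 members, with a median of 171 at the promoter. In rpl-3, a gene of the large ribosomal subunit, the promoter peak had 2155 and the coding exon summit 114 (62.7 and 50.4 in the replicates).

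**Figure D5:**
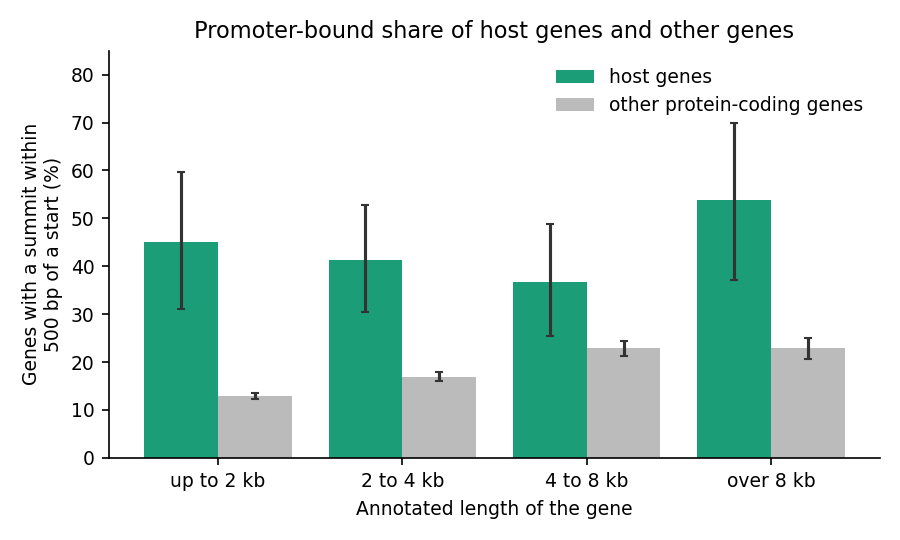
Share of genes with a thresholded summit within 500 bp of a start, for host genes of exonic and UTR peaks (green) and other protein-coding genes (grey), by annotated gene length. Lines are exact 95% binomial intervals, and the shares in the shortest group are 45.1% and 12.9%.

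Some hosts carried more than 1 member. There were 13 such genes, with 27 of the 255 summits. W06H8.6 had 3, all in its 3' UTR, with pooled signals of 101.2, 97.5 and 93.8. Its replicate signals were 49.4 and 46.6, 47.7 and 46.9, and 88.4 and 23.9, so the third differed most between replicates. All 3 fell inside an annotated non-coding RNA gene. Each of the others had 2.

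Several of these genes code for metabolic enzymes or regulators. icl-1, which encodes the enzyme of the glyoxylate cycle, had coding exon summits of 178 (92.4 and 70.7 in the replicates) and 81.0 (64.9 in replicate 2 and no region in replicate 1). pck-2, which encodes a phosphoenolpyruvate carboxykinase, had 87.0 and 78.4, close to the suro-1 summit. mak-1, a MAPKAP kinase gene, had 166 and 105, and cept-2 had a second 3' UTR summit of 80. The nuclear receptor corepressor gene din-1 had 153 in a 5' UTR and 90.05 in a coding exon. unc-62, the Meis homeobox gene, had 92.5 and 80.4, both in 5' UTRs. C05D11.8 had 155 and 75.7, F58D5.5 108 and 83.4, and hpo-34 93.2 and 75. In 7 of the 9 genes named besides W06H8.6, a promoter peak was present too, against 42.7% of all hosts. The remaining genes with 2 members were nurf-1, which had a promoter peak, and acs-19 and pkg-2, which had none.

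The mes-2 gene lies at chrII:14383973-14388454, and 18 thresholded peaks fell within 20 kb of it. They were counted apart because the worms carry a tagged copy of the gene, and whether that copy adds signal there was not tested. Of these 18 peaks, 3 were members, where members made up 4.64% of all 5501 thresholded peaks. The 3 are 1.18% of the 255 members (0.243 to 3.40). One, with a signal of 77.4, lay in exon 7 of 8 of mes-2, and had a region in replicate 1 (70.4) but none in replicate 2. The other 2 lay in nurf-1, which encodes a subunit of a nucleosome remodelling factor, a 5' UTR summit of 83.7 (30.6 and 45.9) and the coding exon summit of 77.0 named above. Without the peaks within 20 kb of mes-2 there were 252 members, 63.1% of them in coding exons and 30.6% in 3' UTRs, with a median signal of 90.8. Of these 31.7% were in the strongest regions of both replicates, and 42.3% of their hosts were promoter-bound. Each of these shares, and the median, lay within its interval over the 255.

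Grouped by function, the 19 gene lists examined held 59 of the 241 host genes, 1.39% of their 4259 genes, against 1.21% of all protein-coding genes (1.06 to 1.37). Genes of protein synthesis and folding were among those with the larger shares. Chaperones had 4 hosts of 69 (5.80%, 1.60 to 14.2), all 4 also bound at a promoter, against 42.7% of all hosts. The J-domain gene dnj-20 led with 189 (85.1 and 64.5), followed by the calreticulin gene crt-1 at 105 (101.4 in replicate 1, no region in replicate 2) and the Hsc70 gene hsp-1 at 92.2 (37.7 and 35.6). Translation factors and tRNA synthetases had 3 of 75 (4.00%, 0.833 to 11.2), namely eif-2Bdelta (128), dars-1 (95.6) and eef-1A.1 (78.5), all bound at a promoter. Ribosomal proteins had 2 of 82 (2.44%), rpl-3 and rps-2 (78.8).

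Genes of cell division and traffic formed another group. Cell cycle and replication genes had 5 hosts of 160 (3.12%, 1.02 to 7.14), 4 of them promoter-bound. After mdf-2 came rpa-2, a subunit gene of the single-strand DNA binding complex, with 150 (94.6 and 50.01), and the nucleoporin gene npp-16 with 128 (61.0 and 43.6). Small GTPases and vesicle traffic had 6 of 191 (3.14%, 1.16 to 6.71), led by rho-1 (129), rab-11.1 (125) and ral-1 (98.0), all 3 in 3' UTRs. Signalling receptors and kinases had 5 of 200 (2.50%), ptr-12 first, then the Gq gene egl-30 (105, in a 5' UTR) and kin-18.

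Regulators of transcription and chromatin came next. Other transcription factors had 7 of 203 (3.45%, 1.40 to 6.98), with the immune bZIP genes atf-7 (126, 3' UTR) and zip-2 (122, coding exon) and the DM-domain gene dmd-7 (116, 5' UTR) on top. The dmd-7 summit had a region in replicate 2 (77.9) and none in replicate 1. Homeobox genes had 2 of 98 (2.04%), ceh-8 and unc-62. The chromatin regulator list had 3 of 146 (2.05%), the acetyltransferase gene mys-1 (99.8) beside nurf-1 and mes-2. The summits in nurf-1 and mes-2 lay within 20 kb of mes-2. Symbol patterns made the list, and hosts outside it, such as let-526 (128), sin-3 (114), lin-40 (86.3) and lin-59 (82.5), were not counted. The same holds for mef-2 (83.4) and tlp-1 (107) beside the transcription factor list. Nuclear hormone receptors had 1 of 273 (0.366%, 0.00927 to 2.02), nhr-88 with 78.9 (26.1 in replicate 1, no region in replicate 2).

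The neuronal and channel list, the largest with 1862 genes, had 10 hosts (0.537%, 0.258 to 0.985), and its interval lies below the share over all genes. Its symbol patterns also took in chemoreceptor genes, such as the host srt-47. The shares of all lists are per gene and were not adjusted for gene length or eligible exon sequence. The ligand-gated channel gene lgc-40 had 144 (94.5 and 43.2), the ciliary transport gene osm-1 110 (46.7 and 44.3) and eat-16, an RGS protein gene, 109 (53.1 and 80.4). Collagens and cuticle genes had 6 of 239 (2.51%, 0.927 to 5.38), the lipocalin gene lpr-1 (109), col-96 and col-91 (80.3) first. Ubiquitin and proteasome genes had 2 of 143 (1.40%), ubq-1 (92.7) and math-33 (92.5). Splicing and RNA binding had 2 of 109 (1.83%), the SR protein gene rsp-8 (117) and rnp-6. Germ line genes had 2 of 187 (1.07%), ncl-1 (110) and the poly(A) polymerase gene gld-4 (74.2).

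No member was found in a gene of the histone, respiration, muscle structural or yolk protein lists. These lists hold 83, 70, 75 and 6 genes, so a count of 0 allows shares of up to 3.61%, 4.29%, 4.00% and 50%. Apart from the neuronal and channel list, and the chaperone and transcription factor lists, whose lower limits just pass 1.37%, the intervals of the lists with a host include the share over all genes. They were not adjusted for the 19 lists. Promoter-bound hosts were 3 of 3 for chromatin regulators and 4 of 7 for other transcription factors. They were 3 of 10 for neuronal and channel genes and 2 of 6 for small GTPases. Collagens had 1 of 6, signalling genes 1 of 5, germ line genes 0 of 2 and nuclear hormone receptors 0 of 1. Ribosomal protein, ubiquitin, homeobox and splicing genes each had 1 of 2.

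The sequence under the summits was richer in G and C than eligible exon and UTR positions across the genome. The median GC content within 100 bp of the summit was 42.8%, against 38.8% over eligible positions, and equal to the 42.8% of all peaks. It was higher than the annotation in each class, with 45.3% against 37.3% in 5' UTRs, 43.3% against 39.8% in coding exons and 39.3% against 32.3% in 3' UTRs. Copies of the summit window elsewhere in the genome (at least 90% identity over 80 bases) were found for 4 members (1.57%, 0.429 to 3.97), against 3.05% of all peaks.

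GAGAG, searched on both strands within 100 bp of the summit, was present in 102 members (40.0%, 33.9 to 46.3), against 27.2% of eligible windows and 55.8% of all peaks. The share was 13 of 17 in 5' UTRs (76.5%, 50.1 to 93.2), 45.5% in 3' UTRs (34.1 to 57.2) and 33.5% in coding exons (26.3 to 41.4). The annotated windows of the 3 classes had 27.2%, 25.7% and 27.4%, so 5' and 3' UTR summits stood above theirs and coding exon summits did not clear it by their interval. GTTCNANNC was present in 23 members (9.02%, 5.80 to 13.2), against 8.76% of eligible windows and 11.5% of all peaks. It was at 38.9% in peaks inside non-coding genes and at 20.9% (18.3 to 23.8) in intronic peaks. The first class takes in tRNA genes outside protein-coding transcripts only, since summits inside a transcript were classed as exonic or intronic. The letters N stand for any base and neither motif can contain the other.

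Annotated non-coding genes were near a smaller share of members than of all peaks. Within 500 bp, 24 members (9.41%) had one of the kinds counted, against 25.1% of all peaks. Part of this follows from the rule, which places every member summit in a protein-coding exon, while all peaks include 229 inside non-coding genes. The share over eligible positions was not computed. For tRNA genes the counts were 2 members (0.784%), mdf-2 and W02G9.3, against 5.96% of all peaks. For the annotation's ncRNA kind they were 16 (6.27%), against 17.1%. The summit lay inside a non-coding gene in 5 members. Another thresholded summit within 1 kb was found for 72 members (28.2%, 22.8 to 34.2), against 23.5% (22.4 to 24.6) of all peaks, and the intervals overlap.

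Members were also split by height. Of the 36 members at or above the median signal of all peaks (140), 16 (44.4%) had a promoter-bound host, 27 (75%, 57.8 to 87.9) lay in a last exon, 16 (44.4%) held GAGAG and 13 (36.1%, 20.8 to 53.8) had another summit within 1 kb. The 219 weaker ones had 44.3%, 63.9% (57.2 to 70.3), 39.3% and 26.9% (21.2 to 33.3). The intervals overlap, and the differences were not tested. The mix of classes was less alike, with 16 3' UTR, 15 coding exon and 5 5' UTR summits in the stronger set and 61, 146 and 12 in the weaker one.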

How the data were processed

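Each replicate of the MES-2-GFP precipitation, and their pooled alignment, has a deposited list of 30000 unthresholded regions on ce11, and both replicates share 1 thresholded list of 5501 peaks, per the deposited file notes and labels. The authors' signal column, a height per peak of unstated scale, served only to order and describe peaks inside 1 list. Read depth is unknown. Not given in the sources used here are aligner, caller and threshold. The ce10 lists were not used.

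Summits were classed with Ensembl release 115 of WBcel235, whose chromosome lengths match ce11, with 5' UTRs taking precedence over coding exons and these over 3' UTRs. A replicate region counted with an overlap of 1 bp, and its strongest overlapping region gave the value. Eligible positions were 415554 bases taken at every 50th base. Shares have exact Clopper-Pearson intervals, densities exact Poisson ones and medians order-statistic ones, at 95%, tested on simulated data. They treat peaks as independent. A zero count was limited by 3 counts. Lists were matched by patterns on gene symbols, so related genes that the patterns missed were not counted. Named members were the 15 strongest, the top 3 of each class and list, those near mes-2, up to 8 genes with several members, those at the 500 bp limit and the 4 most unequal between replicates. C. elegans sequences came from the RefSeq copy of the genome; none from chromosome I was printed. Exceptions named beside these (pck-2, W02G9.3, acs-19, srt-47, let-526, sin-3, lin-40, lin-59, mef-2 and tlp-1) were chosen after their values were seen. Members and lists were chosen with earlier results of these data known. Alternatives covered the distance, starts, midpoints, class order, strength, mes-2, single replicates, overlap and motif window. Software was Python 3.11.15, numpy 2.4.6, pandas 2.3.3, scipy 1.17.1, matplotlib 3.10.9 and blastn 2.17.0.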

Additional observations from a re-analysis of the deposited data

How the results depend on the processing

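Of 67 alternative values for the counts and shares, 55 stayed within the interval of the value reported (within 1.5 times for the count) and 12 did not. Most of the 12 came from keeping the stronger 50% of the peaks, which left 36 members, 41.7% in coding exons, 44.4% in 3' UTRs, a median signal of 183, 91.7% in the strongest regions of both replicates (all peaks of that set, 95.9%) and 0 within 20 kb of mes-2. There 22.2% of hosts were promoter-bound, against 11.2% of all genes, both counted from fewer peaks. With 250 bp and 1000 bp in place of 500 bp, 27.1% and 51.5% of hosts were bound, against 11.3% and 20.6% of all genes. Any region of each list gave 87.8% in both replicates. With 50 bp either side of the summit in place of 100 bp, 27.8% of members held either motif in place of 46.3%, against 19.0% of eligible windows and 44.8% of all peaks at 50 bp. With 1 replicate alone the count was 225 to 346, the coding exon share 65.8% to 69.7%, the 3' UTR share 25.7% to 28.9%, the share near mes-2 0.889% to 1.45% and the bound share 39.2% to 47.1%. No value was possible for agreement or pooled signal from 1 replicate, nor for the share near mes-2 without those peaks. No paired analysis was possible because there is 1 group. Depth is unknown, so a peak's absence can be a matter of depth.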

Other observations

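The distance to the next summit was read for the 2 strongest members. The next thresholded summit was 3350 bp from that of C34C12.2 and 21723 bp from that of pks-1, against a median of 1855 bp over the 255 members and 2678 bp over all peaks. These 2 were picked after their values were seen, and no test was made.

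A cluster on chromosome I joined 2 neighbouring host genes. The suro-1 summit (272) lay 452 bp from a coding exon summit of pck-2 (78.4), and a second pck-2 summit (87.0) followed.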
